A study of Mus musculus with 16 samples.

Results

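The miR-125 family is described here through its 5 mature strands in C2C12 cells: miR-125a-5p, miR-125a-3p, miR-125b-5p, miR-125b-1-3p and miR-125b-2-3p. Their rows were picked out by miRNA name, and they are 5 of the 2274 miRNA names in the tables. C2C12 is an established line of mouse myoblasts, whose cells form multinucleated myotubes in low serum. The 16 small RNA libraries form 4 groups of 4. Control cells, labelled wild type, and triple-knockout cells (tKO), deleted for miR-206 and for both copies of miR-1a (miR-1a-1, miR-1a-2), were each sampled in growth medium with 20% FBS (GM) and after 3 days in differentiation medium with 2% HS (DM3). All the cells are called PAX7 NEG in the growth protocol, so this is shared by control and tKO. Each group holds 2 lines, control 1 and 2 or tKO clones C1 and C2 (lines 1 and 2 below), with 2 biological replicates of each. The 4 libraries of a group are therefore not 4 independent lines, and p-values measure the spread between these libraries.

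MicroRNAs are cut from hairpin transcripts as a duplex, of which 1 strand is usually kept by an Argonaute protein (the guide) and the other is mostly degraded (the passenger). A guide finds its target mRNAs mainly through the seed, the bases near its 5′ end. The miR-125 family is the mammalian counterpart of worm lin-4. Its 5p strands are the usual guides, and miR-125b-5p is known in muscle cells as a brake on myoblast differentiation, with Igf2 among its described targets. miR-125b-5p is made from hairpins at 2 loci that give the same 5p strand, so that only the 3p strands tell the loci apart.

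The mature strands are shown because the levels, the strand ratios and the shifted starts below depend on where they agree and differ. The sequences are those of RefSeq on GRCm38.p6, with the seed (bases 2 to 8) in capitals, and all 5 strands were matched:
miR-125a-5p: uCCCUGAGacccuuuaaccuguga
miR-125b-5p: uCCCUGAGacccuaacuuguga
miR-125a-3p: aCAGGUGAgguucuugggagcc
miR-125b-1-3p: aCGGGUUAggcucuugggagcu
miR-125b-2-3p: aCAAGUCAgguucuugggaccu
The 5p strands share their seed and their first 13 bases, and 21 aligned bases were identical between 24 and 22 nt. The 3p strands begin with 3 different seeds. Of 22 aligned bases, 18 were identical between miR-125a-3p and miR-125b-1-3p, 18 between miR-125a-3p and miR-125b-2-3p, and 17 between miR-125b-1-3p and miR-125b-2-3p. A read too short to reach past the shared first bases cannot be given to a single 5p strand.

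The hairpins show where each strand lies, with both mature arms in capitals:
Mir125a: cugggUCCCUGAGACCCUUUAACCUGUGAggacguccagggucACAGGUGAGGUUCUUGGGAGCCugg
Mir125b-1: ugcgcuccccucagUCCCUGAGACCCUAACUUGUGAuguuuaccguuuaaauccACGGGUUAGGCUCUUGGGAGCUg
Mir125a (ENSMUSG00000065479.2) lies at chr17:17830812-17830879 on the plus strand and overlaps an exon of Spaca6, in the GENCODE M21 annotation of GRCm38. Mir125b-1 (ENSMUSG00000093354.1), at chr9:41581926-41582002 on the plus strand, lies in introns of 3110039I08Rik and Gm49317 and overlaps an exon of the sense-intronic transcript Gm28119. Mir125b-2 (ENSMUSG00000065472.1) is at chr16:77646273-77646343 on the plus strand, in an intron of Mir99ahg. Each hairpin has a let-7 and a miR-99 or miR-100 hairpin upstream. The gaps from Mir125a were 367 bases to Mirlet7e and 554 bases to Mir99b. The chromosome 9 and 16 clusters are wider, with gaps of 45114 bases from Mir125b-1 to Mirlet7a-2 and 46522 bases from Mir125b-2 to Mirlet7c-1.

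The values are expected counts of reads per miRNA name, summed by library and scaled to library size with TMM factors (CPM with TMM factors, TMM CPM below). Library totals ran from 112792 reads (tKO DM3 line 1 replicate 1) to 6543570, and in 8 of 8 pairs of libraries of a line and medium replicate 2 was deeper than replicate 1. The deleted miR-206-3p was at 837 to 1466 CPM in control GM and 19950 to 57440 CPM in control DM3, against at most 15.5 CPM in tKO GM and 70.9 CPM in tKO DM3. The summed level of 6 myotube markers rose from between 904 and 1523 CPM to between 23110 and 59670 CPM with differentiation in control. It ran from 45.2 to 75.0 CPM in tKO GM and from 156 to 1082 CPM in tKO DM3. The deleted miR-206-3p and miR-1a-3p are among these markers, and miR-206-3p held most of the sum in control. The lower sum in tKO therefore follows in part from the deletion and does not measure myotube formation. Of the markers of other cell types, the 5 of blood (4 with reads) summed to at most 4.80 CPM, the 2 of endothelium to 2.42 to 27.9 CPM, the 5 of epithelium to 2.51 to 41.6 CPM and the 1 of liver to at most 75.5 CPM. The 1 neuronal marker with reads was at 98.1 to 156.5 CPM in control GM and 52.4 to 105.5 CPM in control DM3. In tKO it was at most 12.8 CPM in GM and 21.6 CPM in DM3. In bulk RNA a smaller number of cells with a miRNA and less of it per cell cannot be told apart.

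The family held a sizeable share of all miRNA reads in myoblasts and a smaller one after differentiation. It took 5.57% ± 1.06 (SD, n = 4) of reads in control GM and 2.87% ± 0.388 in control DM3. In tKO the share was 4.94% ± 1.25 in GM and 2.61% ± 0.760 in DM3. Over all libraries the tables held 963582 reads of miR-125b-5p, 589784 of miR-125a-5p, 109814 of miR-125b-1-3p, 10331 of miR-125a-3p and 3310 of miR-125b-2-3p. The group means had this same order in all 4 groups. Within each library miR-125b-5p was above miR-125a-5p, and miR-125a-3p above miR-125b-2-3p. The ranges of the groups nevertheless overlapped for both of these neighbouring pairs in both DM3 groups. Within the family, miR-125b-5p fell from 59.3% ± 1.36 of its reads in control GM to 53.2% ± 1.19 in control DM3, while the part of miR-125a-5p went from 33.9% ± 3.68 to 43.9% ± 0.778 and that of miR-125b-1-3p from 5.99% ± 2.26 to 2.03% ± 0.777. In tKO the mean part of miR-125b-5p went from 56.6% to 51.5%, of miR-125a-5p from 34.9% to 45.1% and of miR-125b-1-3p from 7.66% to 2.62%. The tKO media overlapped for both 5p strands. These are shares of one total and move together by construction.

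With differentiation in control cells, 4 of the 5 strands fell and miR-125b-2-3p did not pass the test. In tKO, 3 of the 5 fell: miR-125b-5p, miR-125a-3p and miR-125b-1-3p. Across all 807 names tested with edgeR, 27.6% changed in control and 19.7% in tKO at an adjusted p under 0.05; the names that were lower in DM3 made up 11.8% and 8.3%. The median log2 change of the 5 strands was -1.50 in control and -1.29 in tKO, beside 0.02 and 0.01 over all names. In TMM CPM the DM3 libraries lay wholly under the GM libraries for 4 of the 5 strands in control and 3 of the 5 in tKO, against 15.7% and 9.54% of all names. The liver marker, miR-122-5p, was also lower in DM3 without overlap, at 3.90 to 27.6 CPM in control GM and at most 3.24 CPM in control DM3, and at 17.8 to 75.5 CPM in tKO GM and at most 8.96 CPM in tKO DM3. The floor of 3 reads was 1 to 12.1 CPM in control DM3 libraries and 0.66 to 26.6 CPM in tKO DM3 libraries, so the DM3 values of this marker lie near the floor. The part of the marker's source in the strands' levels was not tested.

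miR-125b-5p, the more abundant guide, was at 42880, 36930, 36430 and 35840 TMM CPM in control GM (line 1 replicates 1 and 2, then line 2 replicates 1 and 2, an order kept below). In control DM3 it was at 13220, 11980, 13900 and 14570 TMM CPM. The tKO libraries gave 23570, 31100, 28290 and 36800 TMM CPM in GM and 7204, 10040, 16980 and 14880 TMM CPM in DM3. The media did not overlap in either genotype, and tKO clone C1 was the lower clone in DM3. The log2 change was -1.50 (SE 0.27, adjusted p 0.000368, edgeR), a 2.83-fold fall, in control and -1.29 (SE 0.27, adjusted p 0.00235), a 2.44-fold fall, in tKO.

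miR-125a-5p, the guide with the same seed, moved less. It was at 28610, 20620, 21200 and 17380 TMM CPM in control GM and at 10530, 10360, 11250 and 12090 TMM CPM in control DM3. In tKO it was at 16250, 14740, 22640 and 19600 TMM CPM in GM and at 5340, 9122, 15610 and 14050 TMM CPM in DM3. The control groups were apart. In tKO they overlapped, because clone C2 in DM3 reached 15610 while clone C1 in GM was as low as 14740. Within each clone, both DM3 libraries were nevertheless below both GM libraries. The edgeR change was -0.99 (SE 0.30, adjusted p 0.018) in control and -0.73 (SE 0.30, adjusted p 0.0951) in tKO. The same lines were sampled in both media, and with the line as a block the tKO change was -0.80 with an adjusted p of 0.0211. The control call was lost without any 1 of 5 libraries: line 1 replicate 1 of control GM (adjusted p 0.063), line 2 replicate 1 of control GM (0.0611), or lines 1 replicate 1, 1 replicate 2 and 2 replicate 1 of control DM3 (0.0515, 0.0658 and 0.0533), with log2 changes from -1.07 to -0.94. Scaling by total counts gave -0.61 (adjusted p 0.0971) in control, in a fit where the median of all names moved from 0.02 to 0.39 (0.01 to 0.24 in tKO) and the higher names rose from 57.4% to 71.2% of those called (57.9% to 71.9% in tKO).

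**Figure D1:**
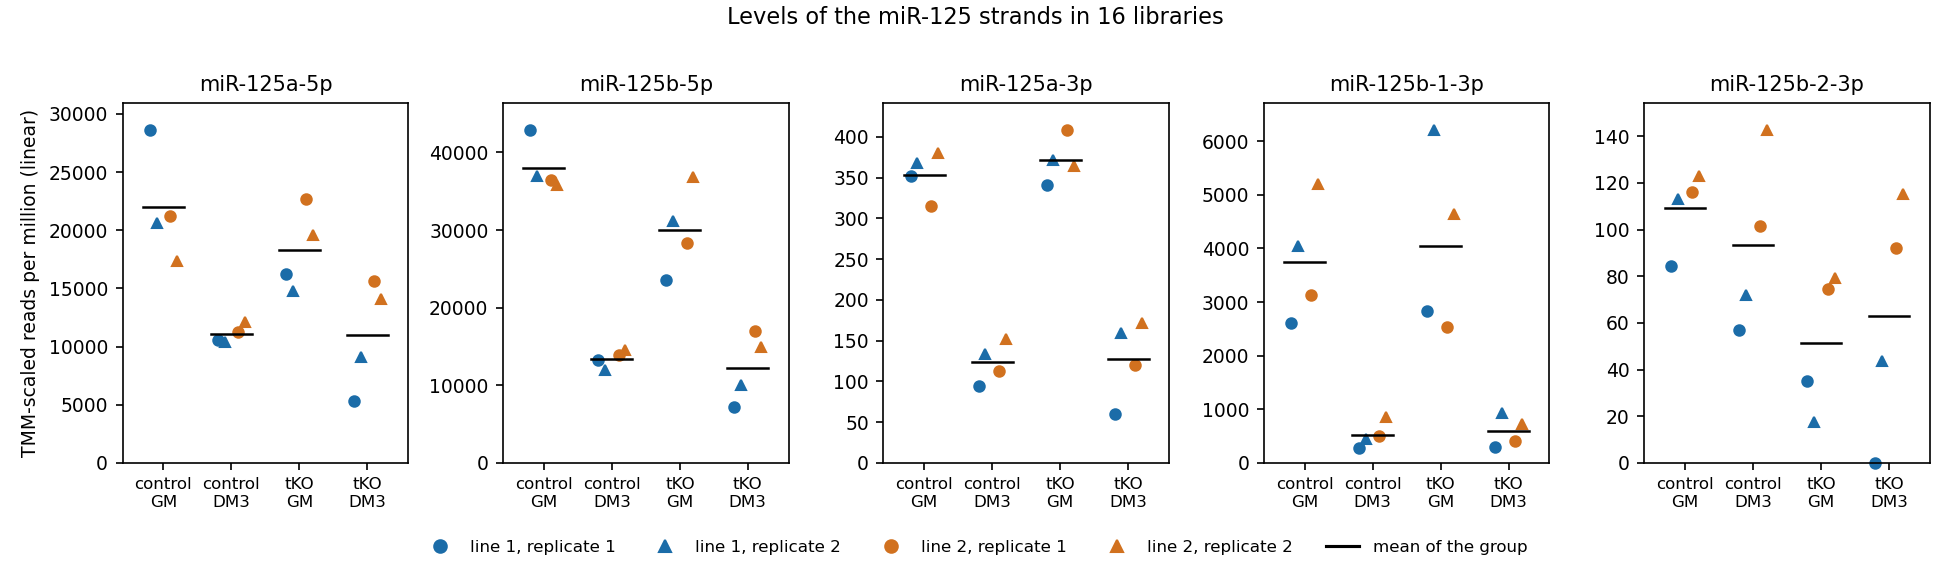
Level of each strand in TMM-scaled CPM, on linear axes from 0, in the 16 libraries; colours mark the line, symbols the replicate, and bars the group mean. The 4 DM3 libraries lie under the 4 GM libraries for miR-125b-5p, miR-125a-3p and miR-125b-1-3p in both genotypes and for miR-125a-5p in control, while miR-125b-2-3p overlaps between media in both.

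miR-125b-1-3p, the passenger from the chromosome 9 locus, fell most of the 5 in both genotypes. It was at 2612, 4053, 3123 and 5206 TMM CPM in control GM and at 284.6, 445.4, 505.5 and 851.7 TMM CPM in control DM3. The tKO libraries gave 2826, 6210, 2527 and 4636 TMM CPM in GM and 287.4, 931.2, 410.7 and 732.0 TMM CPM in DM3. Even the highest DM3 library stayed under the lowest GM library of its genotype. The log2 change was -2.84 (SE 0.44, adjusted p 0.000114, edgeR), a 7.16-fold fall, in control and -2.77 (SE 0.44, adjusted p 0.000357), a 6.81-fold fall, in tKO. Replicate 2 was above replicate 1 in 8 of 8 pairs of the same line and medium, as was the depth of the library, and the part of depth or replicate in the level was not tested. Within replicate 1 alone the change was -2.94 (adjusted p 0.00566) in control and -2.89 (0.00415) in tKO, and within replicate 2 alone -2.80 (0.0013) and -2.71 (0.00913).

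miR-125a-3p, the passenger of Mir125a, was at 351.5, 368.4, 314.7 and 379.7 TMM CPM in control GM and at 93.9, 133.7, 113.1 and 152.5 TMM CPM in control DM3. In tKO it was at 340.4, 371.9, 408.3 and 363.9 TMM CPM in GM and at 60.2, 159.0, 120.3 and 171.4 TMM CPM in DM3. The 2 media were far apart in both genotypes. The log2 change was -1.51 in control (SE 0.33, adjusted p 0.00219, edgeR) and -1.50 in tKO (SE 0.33, adjusted p 0.00353). Without the whole of clone C1 the tKO change was -1.41 with an adjusted p of 0.0574.

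miR-125b-2-3p, the passenger from the chromosome 16 locus, was the rarest strand and passed the test in neither genotype. It was at 84.3, 113.2, 116.0 and 123.1 TMM CPM in control GM and at 56.9, 72.2, 101.6 and 142.7 TMM CPM in control DM3. In tKO it was at 35.1, 17.4, 74.7 and 79.2 TMM CPM in GM and at 0, 43.5, 92.1 and 115.4 TMM CPM in DM3, where the 0 comes from the shallowest library and allows up to 20.1 TMM CPM (3 reads; this covers counting error only). The media overlapped in both genotypes. In tKO both media had line 2 above line 1. The log2 change was -0.22 (95% interval -1.40 to 0.96, adjusted p 0.828, edgeR) in control and 0.37 (95% interval -0.81 to 1.55, adjusted p 0.72) in tKO. The control value changed sign with total-count scaling (0.13), and the tKO value did so within replicate 1 (-0.09), so no direction is given for it.

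**Figure D2:**
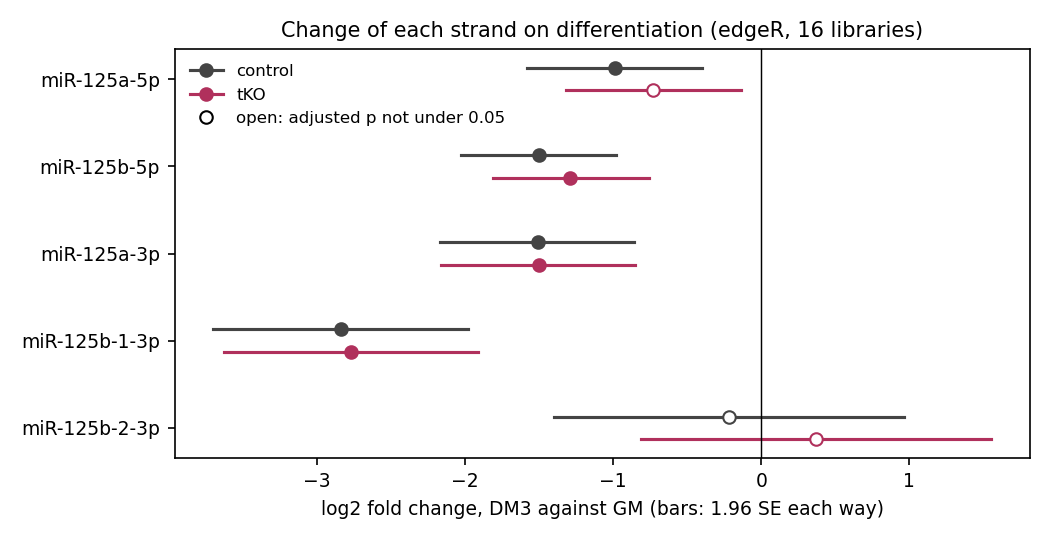
Log2 fold change between DM3 and GM from edgeR for each strand, in control (grey) and tKO (red); bars span the 95% normal interval around the estimate, and filled symbols have an adjusted p under 0.05. miR-125b-1-3p lies furthest to the left at -2.84 and -2.77, and the intervals of miR-125b-2-3p include 0.

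The strand ratio sets a 3p strand against its 5p strand within one library, so no scaling between libraries enters it, although both differ in how well adapters are ligated to them. It still moved with the replicate number: replicate 2, the deeper library, had the higher miR-125b-1-3p and miR-125a-3p ratios in 8 of 8 pairs of the same line and medium. Libraries held 512340 to 6543570 reads in control GM and 247964 to 2991983 in control DM3, and the part of depth in the ratios was not tested. The values within each replicate number are given with each ratio. Of the 3 ratios, that of miR-125b-1-3p to miR-125b-5p fell with differentiation in both genotypes and the other 2 did not pass the test (limma on 216 strand pairs). Of all pairs, 21.8% changed in control and 14.8% in tKO, and the pairs whose 3p strand lost ground made up 10.6% and 7.41%. Since miR-125b-5p comes from 2 loci, its ratios compare the 3p strand of a single locus with the 5p strand of both.

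Per 100 reads of miR-125b-5p there were 6.09, 10.97, 8.57 and 14.53 reads of miR-125b-1-3p in control GM and 2.15, 3.72, 3.64 and 5.85 in control DM3. In tKO the ratio was 11.99, 19.97, 8.93 and 12.60 in GM and 3.99, 9.27, 2.42 and 4.92 in DM3. The control groups did not overlap, and the lowest GM library was only just above the highest DM3 library. In tKO they overlapped, since clone C1 replicate 2 in DM3 was above clone C2 replicate 1 in GM. The log2 ratio changed by -1.40 (SE 0.44, adjusted p 0.034, limma) in control and by -1.48 (SE 0.44, adjusted p 0.0353) in tKO. With the line as a block, the adjusted p was 0.0272 in control and 0.0261 in tKO (limma). The exact, two-sided permutation test of 4 against 4 libraries, whose smallest p is 0.0286, gave 0.0286 and 0.0571. Leaving out 1 library ended the call for 6 of the 8 control libraries (line 1 replicate 2 and both of line 2 in GM, both of line 1 and line 2 replicate 1 in DM3; log2 -1.45 to -1.15) and for 6 of the 8 tKO libraries (both of clone C1 and C2 replicate 2 in GM, C1 replicate 1 and both of C2 in DM3; -1.51 to -1.17), and within each replicate number alone the change was -1.36 and -1.44 in control and -1.73 and -1.23 in tKO, with adjusted p between 0.0852 and 0.175.

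The ratio of miR-125a-3p to miR-125a-5p was lower in every group and moved less. Per 100 reads of miR-125a-5p there were 1.23, 1.79, 1.48 and 2.19 reads of miR-125a-3p in control GM and 0.89, 1.29, 1.01 and 1.26 in control DM3. In tKO there were 2.09, 2.52, 1.80 and 1.86 in GM and 1.13, 1.74, 0.77 and 1.22 in DM3. The media overlapped in control but not in tKO (exact permutation p 0.0857 and 0.0286). The log2 change was -0.56 (95% interval -1.17 to 0.05, adjusted p 0.212, limma) and -0.79 (95% interval -1.40 to -0.18, adjusted p 0.0969). Without clone C1 replicate 2 in DM3 the tKO change passed the test (-0.98, adjusted p 0.0451). Within replicates 1 and 2 alone the change was -0.50 and -0.63 in control and -1.02 and -0.57 in tKO.

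The ratio of miR-125b-2-3p to the shared 5p strand had a positive estimate in both genotypes and passed the test in neither. Per 100 reads of miR-125b-5p there were 0.197, 0.306, 0.319 and 0.344 of its reads in control GM and 0.431, 0.602, 0.731 and 0.979 in control DM3. In tKO there were 0.149, 0.056, 0.264 and 0.215 in GM and 0, 0.433, 0.543 and 0.775 in DM3. All 4 control DM3 libraries were above all 4 control GM libraries, and in tKO this held but for the library without a read. The log2 change was 1.21 (95% interval -0.19 to 2.62, adjusted p 0.242, limma; exact permutation p 0.0286) in control and 1.03 (95% interval -0.37 to 2.43, adjusted p 0.348; exact p 0.371) in tKO. Without that library, which held 112792 reads in all, the tKO change was 1.94 with an adjusted p of 0.023, and within replicates 1 and 2 alone it was -0.33 and 2.40 (adjusted p 0.866 and 0.0883). In control those values were 1.18 and 1.25. Ratios whose media did not overlap made up 14.8% (lower in DM3) and 12% (higher) of all pairs in control, and 8.8% (lower) in tKO.

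The 2 passengers of miR-125b were also set against each other, a comparison added after the data were seen. Per 100 reads of miR-125b-1-3p there were 3.23, 2.79, 3.72 and 2.36 reads of miR-125b-2-3p in control GM and 20.0, 16.2, 20.1 and 16.8 in control DM3. In tKO GM there were 1.24, 0.280, 2.95 and 1.71, and in tKO DM3 0, 4.67, 22.4 and 15.8. The chromosome 9 passenger was thus the more abundant one in every library, by a margin that was smaller in all control DM3 libraries than in any control GM library. The mean log2 ratio was 2.61 higher in control DM3 (exact permutation p 0.0286) and 2.51 higher in tKO DM3 (exact p 0.114). This pair was not part of the limma fit.

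**Figure D3:**
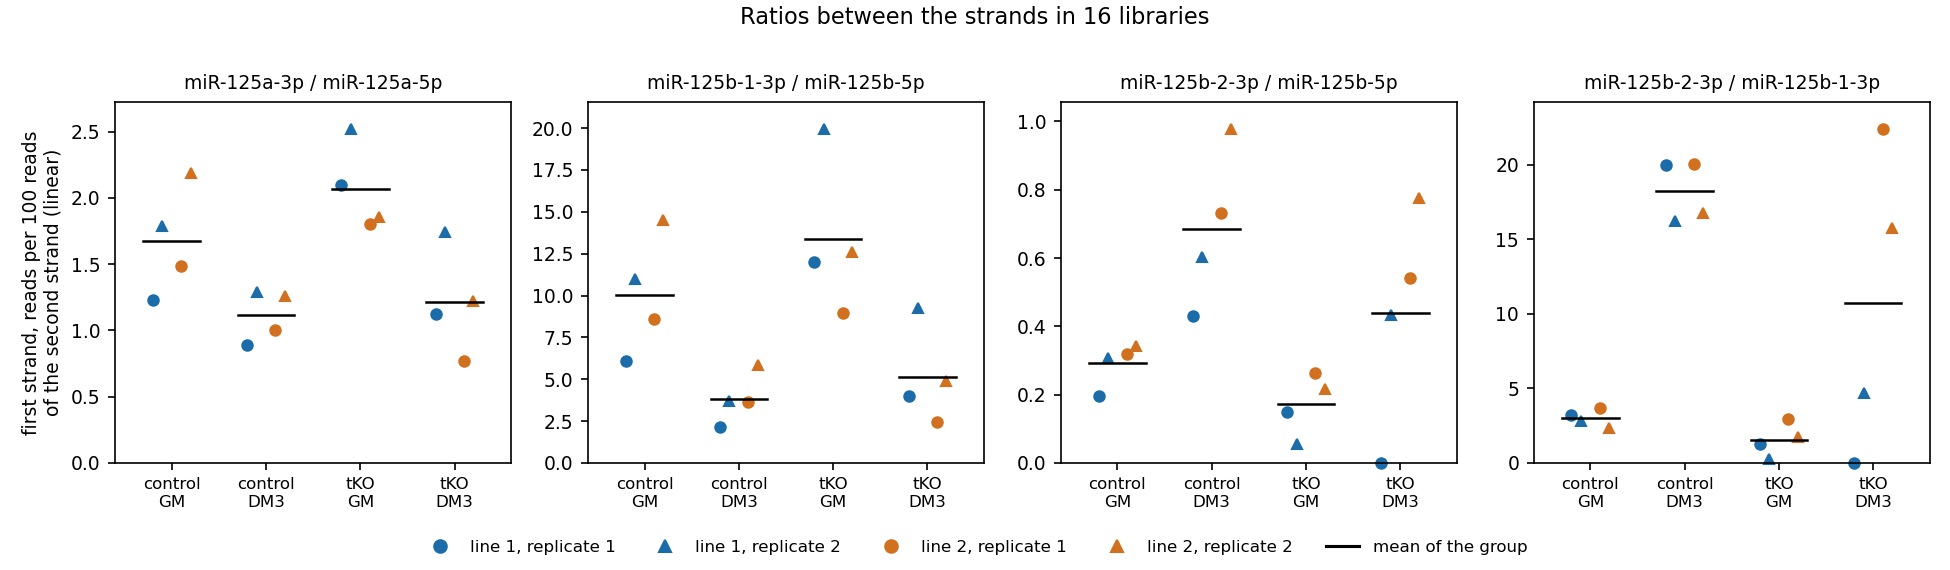
Reads of the first-named strand per 100 reads of the second, on linear axes from 0, in the 16 libraries; colours mark the line, symbols the replicate, and bars the group mean. The miR-125b-1-3p ratio falls from 6.09 to 14.53 in control GM to 2.15 to 5.85 in control DM3, and both miR-125b-2-3p ratios are higher in every control DM3 library than in any control GM library.

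Each name gathers reads that differ in length and start. The forms whose shares are followed below are given as the files list them, as DNA, with bases 2 to 8 of the read in capitals; they are common forms of the 5p strands, and for 2 of the 3p strands a less common form whose start lies upstream, which changes the seed:
miR-125a-5p, 23 nt: tCCCTGAGaccctttaacctgtg
miR-125b-5p, 22 nt: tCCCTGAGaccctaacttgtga
miR-125b-5p, 21 nt: tCCCTGAGaccctaacttgtg
miR-125b-1-3p, 3 bases upstream: tCCACGGGttaggctcttggga
miR-125b-2-3p, 2 bases upstream: tCACAAGTcaggttcttgggac
The whole 24-nt mature miR-125a-5p made up 19.4% of its reads over all libraries, and the form without its last base 52.6%. For miR-125b-5p the whole 22-nt form made up 40.4% and the 21-nt form 30.0%. The 21-nt and shorter forms are listed under hairpin copy 2, although both loci encode them, so the copy number in the tables does not separate the loci for them. The form with 1 more base, a T that follows the mature strand in Mir125b-1, made up 1.35%.

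The whole form of miR-125b-5p took a smaller share in DM3. This 22-nt form made up 38.1, 40.6, 41.6 and 43.4% of its reads in control GM and 35, 28.7, 33.8 and 28.6% in control DM3. In tKO the share was 42.0, 47.6, 42.2 and 43.2% in GM and 40.5, 31.8, 35.9 and 28.5% in DM3. The 21-nt form moved oppositely, from between 28.4 and 31.2% to between 32.5 and 39.9% in control and from between 24.7 and 28.5% to between 29.0 and 38.1% in tKO. Neither form overlapped between media in either genotype, and within each DM3 group replicate 2 had the smaller share of the whole form in each line. Reads under 18 nt over all names, a sign of RNA quality, were also more common in DM3, without overlap in control and with overlap in tKO. Control libraries held 1.88 to 2.95% of such reads before differentiation and 4.76 to 12.8% after it; tKO libraries held 2.00 to 6.50% before and 2.96 to 18.9% after. Among miR-125b-5p reads alone they made up 1.21% ± 0.349 (SD, n = 4) in control GM and 1.12% ± 0.164 in control DM3. Among miR-125b-1-3p reads they made up 0.382 to 0.629% in control GM and 0.913 to 4.0% in control DM3. The tKO ranges were 0.370 to 0.547% in GM and 0.613 to 4.65% in DM3, also without overlap. No share over all names is given for this. The DM3 shares rest on few reads, since line 1 replicate 1 held 100 reads of the strand in control DM3 and 43 in tKO DM3. For both 5p strands and miR-125a-3p the media overlapped in both genotypes. The part of reads under 18 nt in the shorter forms was not tested. With sequences of 18 to 25 nt alone, the level of miR-125b-5p changed by -1.09 in control (adjusted p 0.000578, edgeR) and -1.20 in tKO (0.000349), that of miR-125b-1-3p by -2.47 (0.000239) and -2.71 (0.000163), and that of miR-125a-3p by -1.12 (0.00376) and -1.41 (0.000938), while miR-125a-5p gave -0.58 (0.0523) and -0.63 (0.0402).

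The whole form of miR-125a-5p was likewise less common in DM3, at 18.6 to 23.7% of its reads in control GM against 13.9 to 17.5% in control DM3, and at 19.6 to 20.6% in tKO GM against 14.5 to 19% in tKO DM3. The form without its last base overlapped between media, and the one without its last 2 bases was higher, at 15.4 to 16.7% against 18 to 21.5% in control and 16.0 to 17.1% against 18.8 to 19.8% in tKO. Of 256 names examined, the whole mature form had a lower share in DM3 without overlap in 8.59% in control and 9.77% in tKO, and the form without its last base a higher one in 9.77% and 10.2%. No share over all names is given for the form without its last 2 bases, and no test across names was run on these shares.

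The 3p strands varied more at their 5′ end, where a shift changes the seed. Starts were read from sequences listed without a mismatch, which leaves out 5.73 to 8.56% of the reads of each strand. Over all libraries, 0.164% of miR-125a-5p reads and 1.67% of miR-125b-5p reads started downstream of the mature start, and almost none upstream. Of the miR-125a-3p reads 11% started downstream, of the miR-125b-1-3p reads 6.20% started upstream, and of the miR-125b-2-3p reads 14.2% started upstream, 8.67% being the single 22-nt form shown above. The whole annotated miR-125b-2-3p made up 1.81% of its reads, with 38.7% at 21 nt and 34.5% at 20 nt. A mismatch at the first base, A1G (counted from the 5′ end of the mature strand), was found in 3.10% of miR-125b-1-3p reads, above the median of 1.13% over the 66 names that start with A, of which 7 had a higher share. It was found in 1.675% of miR-125a-3p reads (18 names higher) and in 0.997% of miR-125b-2-3p reads (35 names higher), the latter below the median.

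Reads of miR-125b-1-3p that start 3 bases upstream took a larger share of the strand in DM3, and their own level overlapped between media while the strand as a whole fell. They made up 1.81, 0.740, 1.153 and 0.575% of its reads in control GM and 11, 4.10, 8.68 and 3.85% in control DM3. In tKO they made up 1.64, 0.832, 1.80 and 0.883% in GM and 20.9, 4.23, 12.8 and 3.43% in DM3. All DM3 libraries were above all GM libraries in both genotypes. Of 256 names, 1 did so in control (0.391%), this strand itself, and 2 in tKO (0.781%), this strand included. Names without any read of such a start are among the 256 and cannot do so, so these shares do not show how rare the shift is. Scaled as the levels are, the miR-125b-1-3p reads with this start were at 35.8 ± 8.17 TMM CPM (SD, n = 4) in control GM and 31.6 ± 10.5 in control DM3. In tKO they were at 46.1 ± 4.41 in GM and 44.3 ± 15.4 in DM3. The shares in DM3 rest on few reads, from 9 of 43 to 145 of 3426, and in every line and medium the shallower replicate 1 had the larger share. Starts 1 base upstream overlapped between media, at means of 6.5% in GM and 7.9% in DM3 in control and 6.0% and 6.4% in tKO. The share of all upstream starts together also overlapped in both genotypes.

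**Figure D4:**
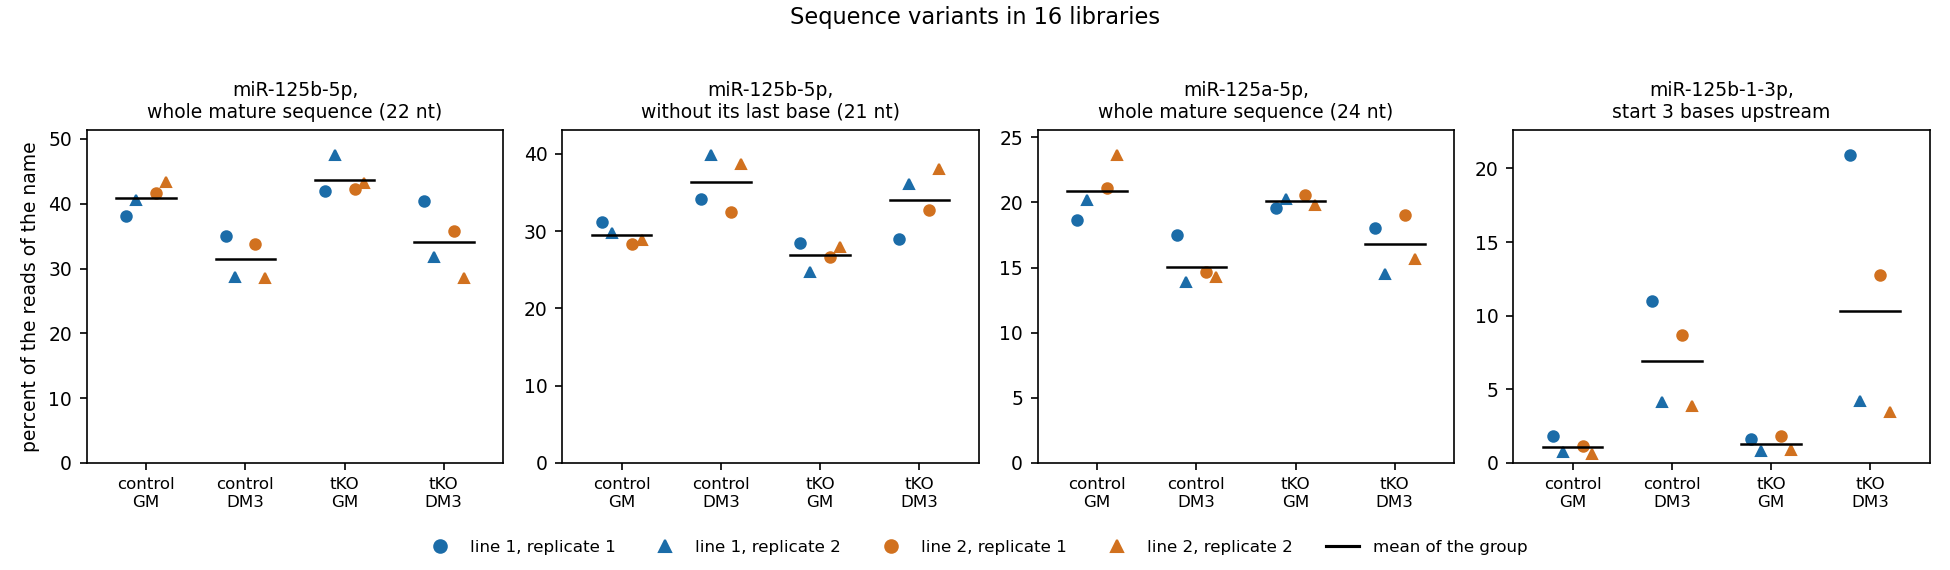
Share of 4 sequence forms among the reads of their name, in percent from 0, in the 16 libraries; colours mark the line, symbols the replicate, and bars the group mean. The whole form of both 5p strands is lower and the 21-nt form of miR-125b-5p higher in DM3, and the miR-125b-1-3p reads that start 3 bases upstream go from at most 1.81% in GM to at least 3.43% in DM3.

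Tails are bases at the 3′ end of a read that the hairpin does not encode. The 3p strands carried them more often: over all libraries 43.4% of miR-125b-2-3p, 36.7% of miR-125b-1-3p and 34.5% of miR-125a-3p reads were tailed, against 14.4% of miR-125b-5p and 14.2% of miR-125a-5p reads. The added base differed too. A single T made up 62.3% of the tailed reads of miR-125b-2-3p, 65.5% of miR-125a-3p and 42.4% of miR-125b-1-3p, and 13.8% and 20.5% for miR-125b-5p and miR-125a-5p, where a single A was the most common tail at 52.3% and 53.4%. The names as a whole were tailed in 29.5% ± 2.02 (SD, n = 4) of reads in control GM.

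No tailed share of the 5 strands changed with differentiation or genotype in limma at an adjusted p under 0.05; at an unadjusted p under 0.05 there were 2 of 5 in control between media and 0 of 5 in the other comparisons. Of 319 names tested, 27.6% changed between media in control and 7.84% in tKO. The tailed share of miR-125b-5p was 18.4, 16.1, 15.1 and 13.3% in control GM and 12.4, 11.3, 13.6 and 13.2% in control DM3, with a change of -0.36 in log2 of tailed to untailed reads (SE 0.13, adjusted p 0.057, limma). The 2 line 1 libraries of control GM were the highest. Their single-G tails on miR-125b-5p were 4.10 and 3.35%, against 0.752 and 0.763% in line 2, and over all names single-G tails reached 3.66% in control GM, 2.89% in control DM3 and 4.53% in tKO DM3. The part of these tails in the change was not tested. That of miR-125b-2-3p was 46.3, 47.7, 50.6 and 43.8% in control GM and 45.0, 26.7, 25 and 39.5% in control DM3, a change of -0.80 (SE 0.33, adjusted p 0.0817, limma) on 20 to 405 reads per DM3 library. Leaving out 1 library brought a call in control for miR-125b-5p (without line 2 replicate 2 of control GM, -0.45, adjusted p 0.0224; without clone C1 replicate 1 of tKO DM3, -0.36, 0.0427) and for miR-125b-2-3p (without line 1 replicate 1 of control DM3, -1.03, 0.0348), and so did a minimum of 200 CPM for miR-125b-5p (-0.36, 0.0287). In tKO these changes were -0.11 (adjusted p 0.671) and -0.17 (adjusted p 0.777).

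**Figure D5:**
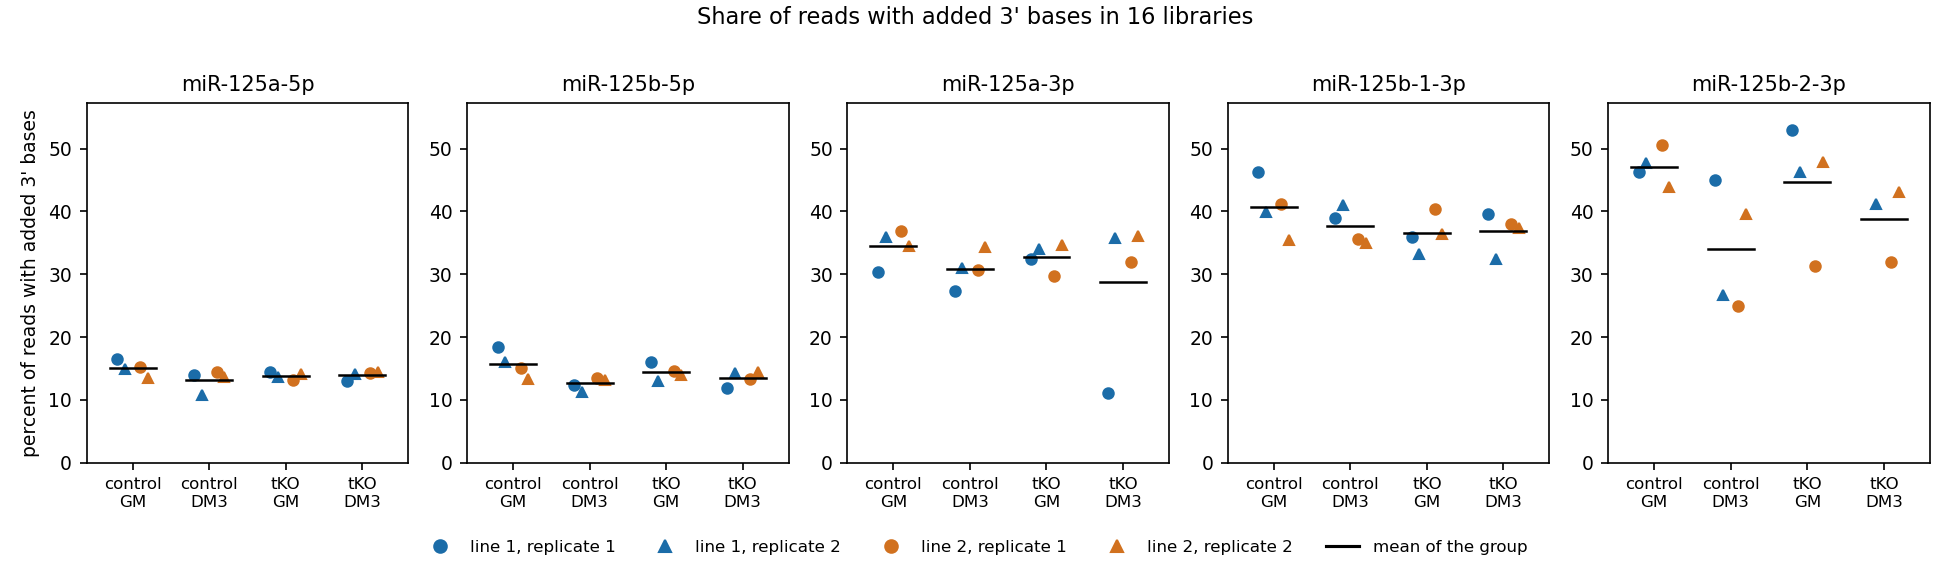
Percent of reads with added 3′ bases for each strand, on one common axis from 0, in the 16 libraries; colours mark the line, symbols the replicate, and bars the mean of the libraries that hold reads. The 5p strands lie between 10.8 and 18.4% and the 3p strands between 25 and 52.9%, apart from miR-125a-3p at 11.1% in the shallowest library.

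No strand passed the test between tKO and control in level. In edgeR 0 of 5 had an adjusted p under 0.05 in GM or in DM3 (lowest 0.784 and 0.755), 0 of 5 had an unadjusted p under 0.05, and DESeq2 called 0 of 5 in both; of all names 1.12% changed in GM and 0.867% in DM3. In GM the log2 difference was -0.34 (95% interval -0.86 to 0.17) for miR-125b-5p, -0.26 (-0.84 to 0.32) for miR-125a-5p, 0.07 (-0.57 to 0.70) for miR-125a-3p and 0.11 (-0.69 to 0.91) for miR-125b-1-3p. In DM3 the same 4 strands lay between -0.13 and 0.18. These intervals leave room for changes of the size given at their ends.

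miR-125b-2-3p was the strand that came closest to a difference by genotype. In GM its 4 tKO libraries, at 17.4 to 79.2 TMM CPM, were all under its 4 control libraries, at 84.3 to 123.1 TMM CPM, as were 5.45% of all names. The edgeR difference was -1.08 (SE 0.61, adjusted p 0.784). Clone C1 was the lower clone at 35.1 and 17.4 TMM CPM, on 34 and 41 reads, and without this clone the difference was -0.47 (adjusted p 0.997). The direction in GM was the same in every setting run. In DM3 the genotypes overlapped, and the difference ran from -0.89 to 0.18 over 29 alternatives without a call, the 0.18 being without clone C1. The tested names of its hairpin cluster also had negative differences in GM, and none passed. They were -1.48 for miR-99a-5p (adjusted p 0.282, edgeR), -0.92 for let-7c-1-3p (0.722) and -0.34 for let-7c-5p (0.937). The 1 neuronal marker with reads, miR-9-5p, also differed between the genotypes, at 98.1 to 157 CPM in control GM and at most 12.8 CPM in tKO GM; miR-124-3p, the other neuronal marker listed, had no reads. The 5 epithelial markers summed to 9.76 to 16.9 CPM in control GM and 17.8 to 35.2 CPM in tKO GM, without overlap. The part of these in the strand's level was not tested.

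The responses to differentiation were not shown to differ between control and tKO for any strand. The interaction term was 0.26 (95% interval -0.57 to 1.08) for miR-125a-5p, 0.0066 (-0.89 to 0.91) for miR-125a-3p, 0.22 (-0.51 to 0.95) for miR-125b-5p, 0.07 (-1.06 to 1.21) for miR-125b-1-3p and 0.59 (-1.08 to 2.26) for miR-125b-2-3p, with adjusted p of 0.937 or more in edgeR. Across all names 0% passed for the interaction in edgeR, with 37 of 807 at an unadjusted p under 0.05 and 0 by DESeq2. The strand ratios gave 0.463% of 216 pairs by genotype in GM and 0.463% in DM3, none a miR-125 pair, and 0% for the interaction (5 of 216 at an unadjusted p under 0.05). The tailed shares gave 0% in all 3 (13, 29 and 25 of 319 at an unadjusted p under 0.05).

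The other miRNAs of the 3 hairpin clusters were followed as a list of 11 names, of which 10 were tested. The 5p strands of the list's miR-99 and miR-100 members share a seed with each other. The 5p strands of its let-7 members belong to the let-7 family, which rises in many differentiating tissues. In control 7 of the 10 fell with differentiation and none rose, and in tKO 4 of the 10 fell, beside 11.8% and 8.3% of all names. The medians were -1.23 and -1.08, beside 0.02 and 0.01 over all names. miR-100-5p, upstream of Mir125b-1, changed by -1.44 (SE 0.32, adjusted p 0.00219, edgeR) in control and -1.17 (SE 0.32, adjusted p 0.0141) in tKO. The tKO call was lost without clone C2 replicate 1 (-1.12) or 2 (-1.14) in GM or clone C1 replicate 1 in DM3 (-0.93). It was also lost without the whole of clone C1 (-1.02) and within replicate 2 alone (-0.71). Within replicate 2 alone the control call was lost too (-1.29). miR-99b-3p, upstream of Mir125a, changed by -1.18 (adjusted p 0.00763) and -1.35 (adjusted p 0.00504). Its control call was lost within replicate 1 alone (-1.25) and within replicate 2 alone (-1.17). Its tKO call was lost within replicate 2 alone (-0.89) and without clone C1 (-1.13).

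In the Mir125b-2 cluster, let-7c-5p fell in control (-0.76, SE 0.26, adjusted p 0.0372) and changed by -0.59 in tKO (adjusted p 0.128), in edgeR. The name let-7c-5p carries no copy number, while the hairpin of this cluster is Mirlet7c-1. Its reads are therefore not tied to this locus. miR-99a-5p, which differs little from miR-100-5p and may share reads with it, changed by -0.62 (SE 0.51, adjusted p 0.405) in control and -0.02 (SE 0.51, adjusted p 0.992) in tKO, and let-7c-1-3p by -1.18 (adjusted p 0.0965) and 0.19 (adjusted p 0.844), all in edgeR. let-7a-2-3p, in the Mir125b-1 cluster, fell in control (adjusted p 0.00113, edgeR) from a mean of 9.67 to 0.833 TMM CPM, and did not pass in tKO (adjusted p 0.0847). Its mean in control DM3 lay under the floor of 3 reads in each library, 1.06 to 8.54 TMM CPM, so no fold is given. The difference between the clusters was not tested.

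One name outside the family carried the same bases 2 to 8 as the 5p strands. miR-351-5p was at 3616 ± 606 TMM CPM (SD, n = 4) in control GM and 5057 ± 1173 in control DM3, a change of 0.48 (SE 0.28, adjusted p 0.213, edgeR). In tKO it went from 2577 ± 422 to 4373 ± 1443, a change of 0.76 (SE 0.28, adjusted p 0.0648), and with the line as a block 0.77 (adjusted p 0.0489). Over 32 alternatives the change ran from 0.23 to 0.96 in control, with 4 calls, and from 0.49 to 1.44 in tKO, with 9 calls. Its estimate was positive in both genotypes where those of both 5p strands were negative.

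The names most like each strand over the 16 libraries were found by the Pearson r of log2 TMM CPM among 243 names outside the family. For miR-125a-5p the names outside the family were let-7c-5p (0.959), miR-99b-5p (0.953) and miR-106b-3p (0.946). miR-125b-5p was most like miR-222-3p (0.971), miR-92a-3p (0.933) and miR-106b-3p (0.925). miR-125a-3p was most like miR-27a-5p (0.959), miR-99b-3p (0.958) and miR-222-3p (0.956), and miR-125b-1-3p most like miR-27a-5p (0.953), miR-30c-2-3p (0.937) and miR-221-5p (0.934). For miR-125b-2-3p they were miR-181d-5p (0.938), miR-34c-3p (0.896) and miR-27a-3p (0.884). Within the family, miR-125a-3p and miR-125b-1-3p had an r of 0.958, above that of any name outside it with miR-125b-1-3p, and the passengers of both miR-125b loci one of 0.263. These values describe libraries that share the split by medium and its depth, so they carry no test.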

How the data were processed

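Small RNA was sequenced with a NEBNext kit from gel-selected inserts. The expected counts in the deposited tables are reads per listed sequence; 0.625% of the listed sequences have a value that is not whole, and how the authors shared reads among entries is not given in the sources used here. They are laid out as unitas miRNA tables, per the file headers; the unitas version is not given in the sources used here. The submitters' processing notes name cutadapt 1.15, STAR 2.5.4 and mm10. Listed sequences of 13 to 75 nt were summed to 2274 names, and rounded for edgeR. No other per-sample column was set aside.

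Levels were tested with edgeR 4.0.16 (quasi-likelihood, 16 libraries, TMM, filterByExpr with a smallest count of 10, 807 names), and strand ratios (pseudocount 0.5) and tailed shares (319 names) with limma 3.58.1, all with Benjamini-Hochberg adjustment at 0.05. DESeq2 1.42.0 was an alternative. Both kinds of fit were run on simulated data whose changes were larger than most of those reported here, and which held no lines or replicate numbers. That simulation does not show how well smaller changes are recovered. Non-overlap means that every library of one group lay beyond every library of the other. The floor is 3 reads, or 0.458 to 26.6 CPM by library, and covers counting error only. Named were all 5 strands, their cluster partners, the seed mate and the 3 names outside the family of highest r for each strand. The members and lists were chosen with earlier results of these data known. GM and DM3 share lines by the labels; deviations of libraries of the same line had a mean r of 0.233. Short reads of both 5p strands, and ligation bias between sequences, can shift levels between names.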

Additional observations from a re-analysis of the deposited data

Results flagged for a closer look

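In groups of 4 libraries, 51 groups of values were examined for a library whose distance from its nearest neighbour took up most of the range of the group, and chance alone gives about 1 in 20. In tKO DM3, line 1 replicate 1 had 11.11% of its miR-125a-3p reads tailed, against 31.9 to 36.1% in the other 3 libraries; it held 9 reads of this strand and was the shallowest library. In control GM, line 1 replicate 1 had 42880 TMM CPM of miR-125b-5p, against 35840 to 36930 in the other 3.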

How the results depend on the processing

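All values are log2 changes. No level, ratio or tailed share of the 5 strands was called between genotypes or in the interaction under any setting run. The cause of each shift below was not tested. miR-125b-1-3p kept its fall in all 32 alternatives in both genotypes (-3.25 to -2.46 in control, -3.06 to -2.49 in tKO). The lines pair the media by the labels. Replicate numbers were not shown to pair the libraries: 25 of 48 same-numbered pairs had r above 0.1 (mean 0.102). With the replicate block the miR-125a-3p interaction was -0.02, with both blocks -0.03, and with both blocks the miR-125a-3p ratio in tKO was -0.79 (adjusted p 0.0379). For miR-125a-5p in tKO the line block and both blocks gave -0.80.

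Between media, calls were lost for miR-125a-5p in control with total counts (-0.61), no filter (-1.21), replicates of a line summed (-0.81), sequences of 18 to 25 nt (-0.58), replicate 1 only (-1.26) and replicate 2 only (-0.75), and ran from -1.18 to -0.94 without 1 library. In tKO it was called with the exact mature sequence (-0.79) and at 18 to 25 nt (-0.63). miR-125a-3p lost its call with replicate 2 only in control (-1.37) and in tKO (-1.13), with lines summed (-1.24) and without clone C1 (-1.41). miR-125b-5p lost its call with replicate 2 only in control (-1.44), and in tKO with lines summed (-1.34), replicate 1 only (-1.09) and replicate 2 only (-1.39). miR-125b-2-3p turned with total counts (0.13), no mismatch (0.04) and 18 to 25 nt (0.17) in control, and with replicate 1 only (-0.09) in tKO, where leaving out 1 library gave -0.10 to 0.72.

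Between genotypes, signs turned without a call. For miR-125a-5p these were 0.0044 in GM without clone C1, and in DM3 0.04 with DESeq2 size factors or its Wald test, 0.15 with no filter, 0.07 with only the groups compared, 0.06 with names as listed, 0.02 with replicate 1 only and 0.48 without clone C1 (-0.23 to 0.31 without 1 library). For miR-125a-3p they were -0.08 (lines summed) and -0.15 (replicate 2 only) in GM, and -0.01 (18 to 25 nt) and -0.05 (replicate 1 only) in DM3 (-0.05 to 0.36). For miR-125b-5p they were 0.03 (exact) in GM, and 0.01 (no filter) and 0.31 (without clone C1) in DM3 (-0.34 to 0.14). For miR-125b-1-3p they were -0.09 (replicate 1 only) and -0.04 (without clone C1) in GM (-0.17 to 0.26) and -0.03 (replicate 1 only) in DM3 (-0.13 to 0.63). miR-125b-2-3p gave 0.18 in DM3 without clone C1. The interaction turned for miR-125a-5p at 18 to 25 nt (-0.06), for miR-125a-3p with total counts (-0.14), no mismatch (-0.13), 18 to 25 nt (-0.29) and replicate 1 only (-0.23; -0.14 to 0.28 without 1 library), for miR-125b-5p with exact (-0.22) and 18 to 25 nt (-0.11), and for miR-125b-1-3p with total counts (-0.11), no mismatch (-0.07), exact (-0.39) and 18 to 25 nt (-0.24; -0.23 to 0.54).

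The miR-125b-1-3p ratio lost its call with no filter (-1.40 control, -1.48 tKO), replicate 1 only (-1.36, -1.73), replicate 2 only (-1.44, -1.23) and in tKO without clone C1 (-1.62), and ran from -1.63 to -1.15 and -1.82 to -1.17 without 1 library; its DM3 genotype difference turned without clone C1 (-0.07) and its interaction with replicate 2 only (0.21; -0.42 to 0.23). The miR-125b-2-3p ratio was called with a pseudocount of 5 (1.29 control, 1.80 tKO) and in control without clone C1 (1.21); in tKO it was -0.33 with replicate 1 only and 0.57 to 1.94 without 1 library, and its interaction was 0.05 and 0.51 with pseudocounts of 1 and 5, 1.15 with replicate 2 only and 0.23 without clone C1 (-0.65 to 0.72). The miR-125a-3p ratio gave -0.19 in the DM3 genotype difference without clone C1 (-0.09 to 0.30), 0.06 in the interaction with replicate 2 only, and -0.98 to -0.59 in tKO without 1 library. Tailed shares turned for miR-125b-5p in tKO with replicate 2 only (0.11) and for miR-125b-2-3p (-0.44 to 0.02 without 1 library).

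Counts of names called ranged over settings from 2 to 20 (9 in the reported fit) and 1 to 74 (7) between genotypes in GM and DM3, 85 to 291 (223) and 70 to 212 (159) between media in control and tKO, and 0 to 1 (0) for the interaction; strand pairs 10 to 58 (47) and 2 to 42 (32) between media, and 0 to 1 (1) and 0 to 3 (1) between genotypes; tailed shares 2 to 111 (88) and 3 to 31 (25) between media, and 0 to 1 (0) between genotypes and in the interaction. Depth limits miR-125b-2-3p most, at 0 to 662 reads per library.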
